A study of Homo sapiens with 7 samples.

Results

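Olfactory receptors are G protein-coupled receptors that bind odorants on the cilia of olfactory sensory neurons. Each receptor gene usually has a single coding exon, the genes lie in tandem clusters that grew by duplication, and a sensory neuron transcribes 1 allele of 1 receptor while the remaining receptor genes stay silent. In olfactory neurons silent receptor clusters are packed in heterochromatin that carries H3K9me3, and cells outside the nose do not normally use these genes. Class I receptors, related to those of fish, and class II receptors, the large group of land vertebrates, are told apart by family number. Chromosome 11 holds clusters of both classes. H3K9me3 is the histone mark of constitutive heterochromatin and H3K27me3 is the mark that Polycomb repressive complex 2 places on silent genes.

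The class II olfactory receptors of human chromosome 11 were placed in the H3K9me3 and H3K27me3 domains of HCT116 colorectal carcinoma cells. Members were the protein-coding genes on that chromosome whose GENCODE 44 symbol is OR, a family number from 1 to 14, a single letter and a digit. The rule used names and positions and no chromatin value, and it found 110 genes among 20033 protein-coding genes placed. Of the 110 members, 109 have 1 coding exon, the coding length ran from 906 to 996 bases with a median of 936, 59 are on the plus strand, and 3 have symbols that end in P. A further 11 receptors of chromosome 11 have a double subfamily letter, such as OR5AK2, and were not members.

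The cells were clonal HCT116 lines with an integrated doxycycline-inducible shRNA against UHRF1, the protein that recruits the maintenance DNA methyltransferase DNMT1 to newly copied DNA. All samples came from cells kept for 14 days without doxycycline, so that every sample is a baseline in which the shRNA was not induced, and each line is 1 clone of 1 cell line. H3K27me3 ChIP was present for Clone 3 and Clone 6 with 2 samples each, H3K9me3 ChIP for Clone 3 with 2 samples, and an input for Clone 3 with 1 sample. The measurements used here were 5 sets of domains in hg38, which are broad enriched intervals with edges at whole kb: Clone 3 H3K9me3, Clone 3 H3K27me3, Clone 6 H3K27me3, and for each mark the domains that the clones share. A set stands for both replicates of its group, so no error between replicates can be attached to a count or a length, and the depth of each library cannot be read from domain lists (the study states only a minimum). A member was called in a domain when its start site, the annotated 5′ end of the gene, lay inside it.

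Most members carried a domain of 1 mark. In Clone 3, 38 of 110 start sites (34.5%) were in an H3K9me3 domain, where 3.35% of all protein-coding genes were. In Clone 3, 45 start sites (40.9%) were in an H3K27me3 domain, against 6.44% of all genes. In Clone 6 the H3K27me3 count was 47 (42.7%), against 7.97% of all genes. The clone-shared sets held 38 members for H3K9me3, against 3.24% of all genes, and 45 for H3K27me3, against 5.32% of all genes. Domains of both marks met at 0 of the 110 start sites and at 2 of all genes, or 0.00998%, so the count of members is near the background. In Clone 3, 27 members (24.5%) lay in no domain of either mark, against 90.2% of all genes. Over the 5 sets together, 85 members were in at least 1 domain and 25 in none. Over all genes this count was 2482 of 19229 (12.9%) and 0 of 804, in the 2 groups set out in the next paragraph.

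The 27 members without a Clone 3 domain were not alike in how much of their sequence has a copy elsewhere in hg38. The hg38 genome holds, beside the chromosomes, alternate sequences that repeat parts of a chromosome in another version. For each start site the 50-base windows within 10 kb on either side were searched for an exact copy on an alternate sequence. In 16 of the 27 members without a domain, more than 50% of the windows had such a copy, and in the 83 members with a Clone 3 domain none passed that share. The highest share was 16.8% among the 38 members in H3K9me3 and 14.8% among the 45 members in H3K27me3, while the 27 members without a domain had a median of 98.5%. Over the genome, 804 protein-coding genes had an alternate copy in more than 50% of their windows, and 0 of them had their start site in any of the 5 sets. Of the other 19229 genes, 12.9% were in at least 1 set.

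The genome used by the authors held alternate sequences, since 1 domain of the Clone 6 H3K27me3 set lies on one. No set has a domain on an alternate sequence of chromosome 11. How reads that fit both a chromosome and its alternate were handled is not given in the sources used here, and their part in the missing calls was not tested. For these 16 members, a lack of the mark and a lack of reads placed on the chromosome cannot be told apart. Without them, 94 members remained, of which 38 (40.4%) were in Clone 3 H3K9me3, 45 (47.9%) in Clone 3 H3K27me3, 47 (50.0%) in Clone 6 H3K27me3 and 11 (11.7%) in no Clone 3 domain. The 19229 genes left by the same filter were at 3.49%, 6.71% and 8.31% in these 3 sets. Second exact copies on the main chromosomes had a median of 4.00% of windows over the members and 5.00% over all genes.

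**Figure D1:**
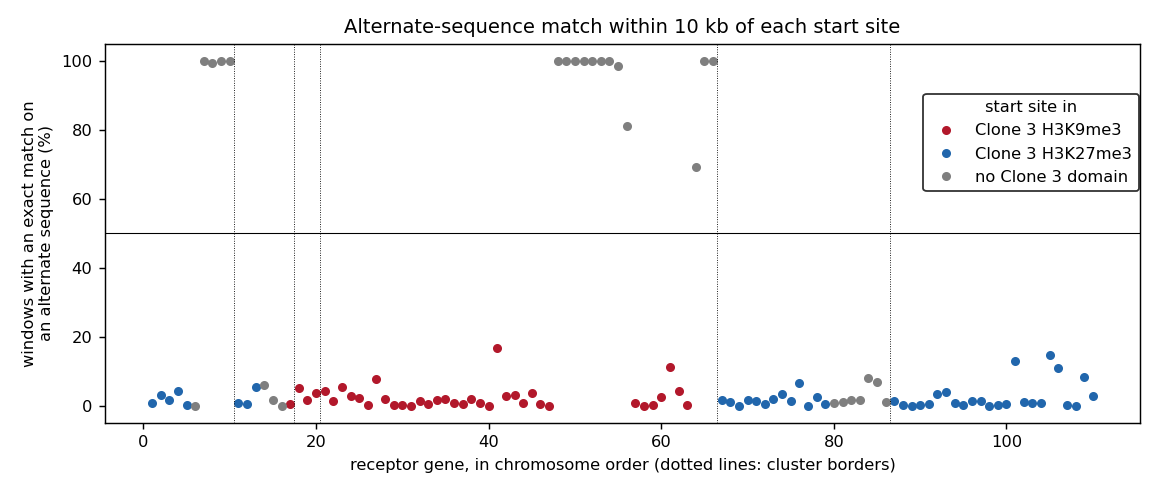
Share of the 50-base windows within 10 kb of each start site that have an exact copy on an alternate sequence of hg38, in percent, for the 110 members in chromosome order. Points are coloured by the Clone 3 domain at the start site, dotted lines are cluster borders and the horizontal line is 50%. The 16 points above the line all belong to members in no Clone 3 domain.

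Along the chromosome the members formed 6 clusters when start sites more than 1 Mb apart were separated, and neighbours mostly shared a state. Of 104 neighbouring pairs within clusters, 97 had the same Clone 3 state, and the order of the members broke into 13 runs of 1 state. The share of alike neighbours over all genes is not given here, and 90.2% of all genes were in no Clone 3 domain. The median distance between neighbours was 23.4 kb, less than the length of each Clone 3 domain that held members. Only 4 H3K9me3 domains and 6 H3K27me3 domains of Clone 3, and 4 H3K27me3 domains of Clone 6, accounted for all members called. The members are therefore not independent measurements of a mark, and the counts above describe a small number of domains. H3K9me3 domains covered 20.4% of chromosome 11 in Clone 3, and H3K27me3 domains covered 17.9% in Clone 3 and 17.1% in Clone 6.

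**Figure D2:**
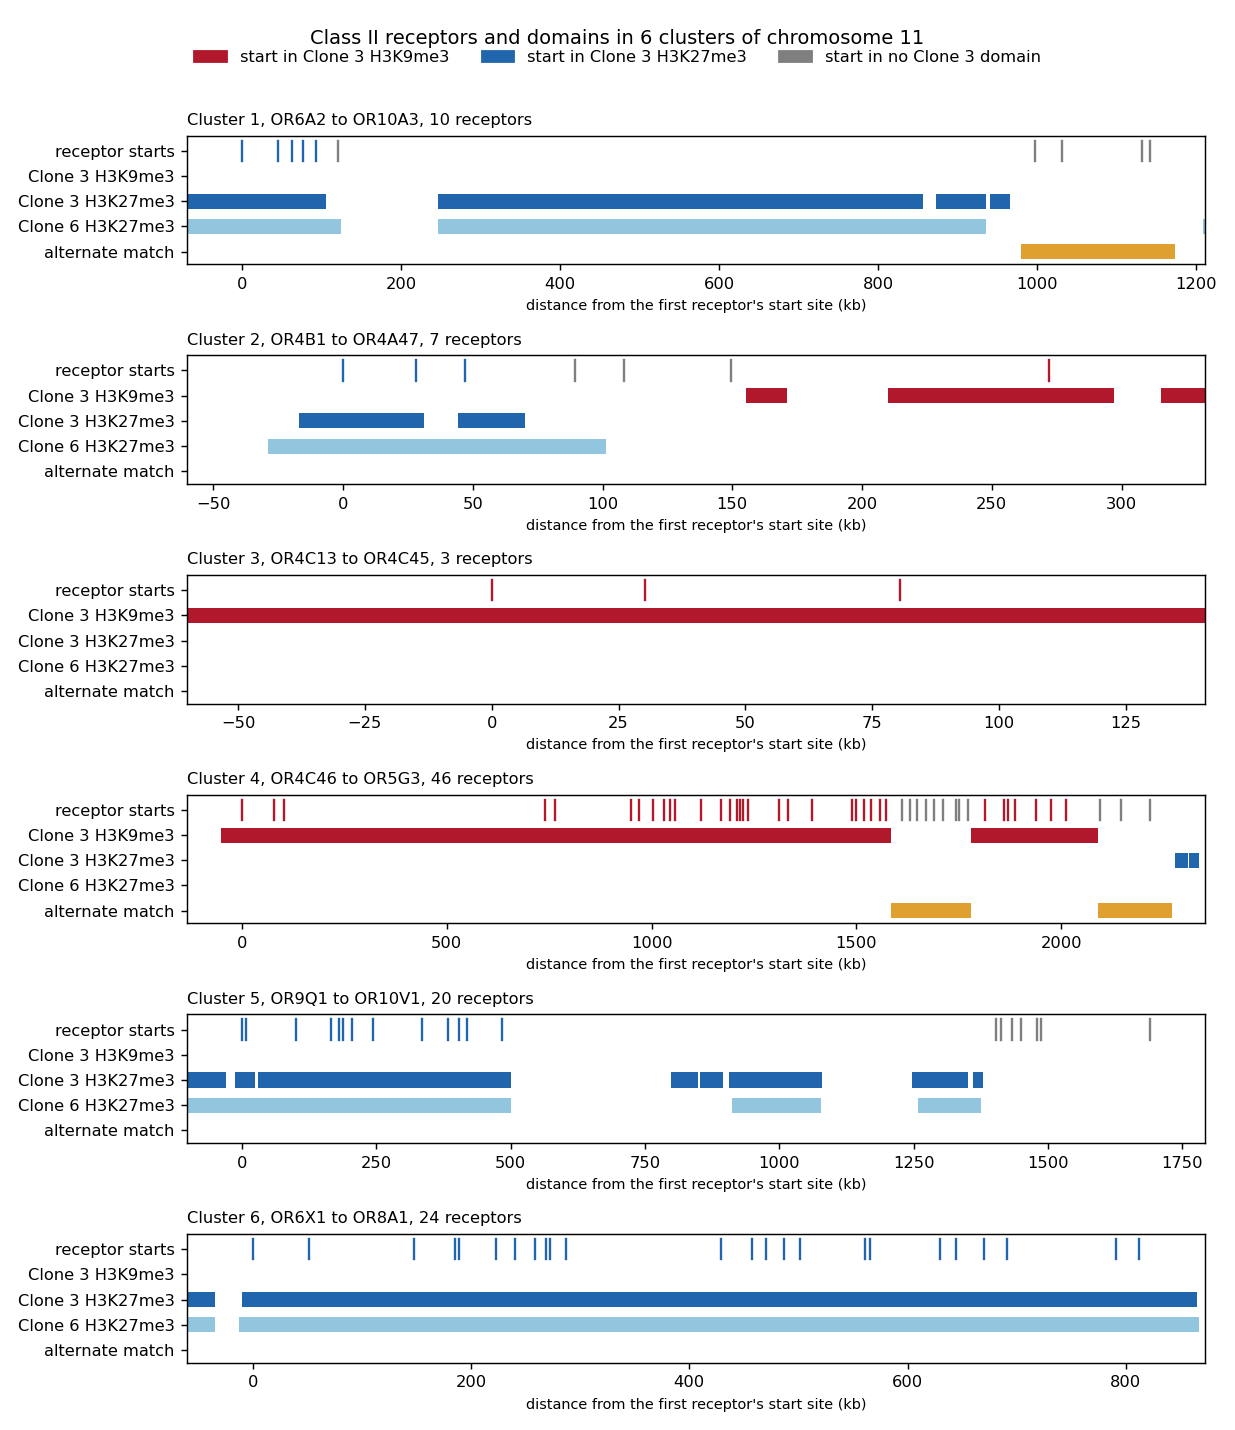
The 6 clusters of class II receptors on chromosome 11, with distance from the first receptor's start site in kb. Ticks are start sites coloured by Clone 3 state, bars are domains of each set, and orange bars are stretches of at least 20 kb in which most 50-base windows have an alternate copy. Clusters 1, 5 and 6 carry only H3K27me3 domains, cluster 4 only H3K9me3 domains over its receptors, and the orange stretches fall outside the domains but for 1 kb in cluster 4.

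**Figure D3:**
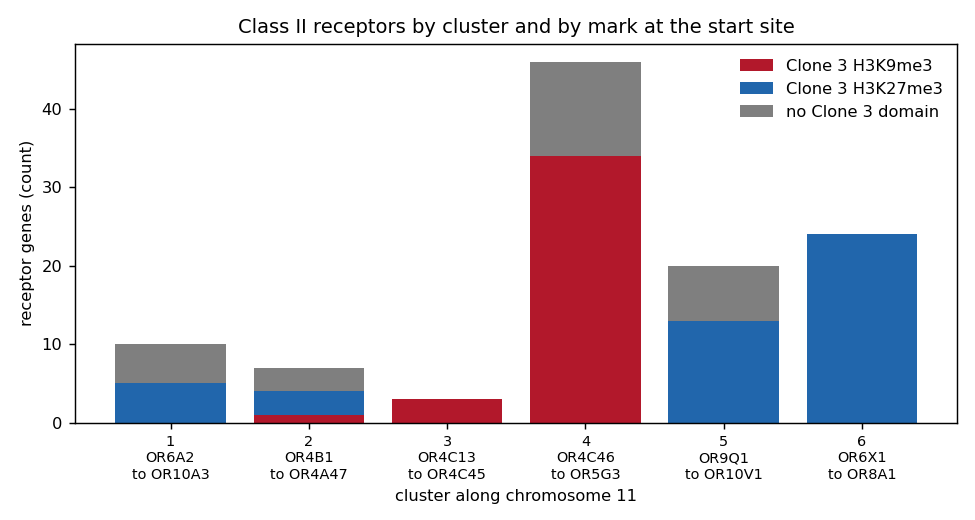
Number of class II receptors in each cluster, stacked by the Clone 3 domain at the start site. Cluster 6 has 24 of 24 members in H3K27me3, cluster 3 has 3 of 3 in H3K9me3, and cluster 2 is the cluster with both marks.

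Cluster 6, from OR6X1 to OR8A1, was in H3K27me3 throughout. All 24 start sites lay in a single domain in each clone, chr11:123745001-124620000 in Clone 3 (875 kb) and chr11:123742001-124622000 in Clone 6 (880 kb). The Clone 3 domain was 63rd in length among 2600 and the Clone 6 domain 68th among 1959. The members were OR6X1, OR6M1, OR8D4, OR4D5, OR6T1, OR10S1, OR10G6, OR10G4, OR10G9, OR10G8, OR10G7, OR10D3, OR8G3P, OR8G2P, OR8G1, OR8G5, OR8D1, OR8D2, OR8B2, OR8B3, OR8B4, OR8B8, OR8B12 and OR8A1. The domain edge lay 9.52 kb before the OR6X1 start site in Clone 3 and 12.5 kb before it in Clone 6, and 53.3 kb and 55.3 kb past the OR8A1 start site. The cluster also holds 19 noncoding receptor loci, all in the H3K27me3 domain, and 2 protein-coding genes of other kinds, TMEM225 and VWA5A, which were in it too. The nearest H3K9me3 domain of Clone 3 was 2485 kb from OR8A1.

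Cluster 5 was split between H3K27me3 and no domain. Its first 13 members, OR9Q1, OR6Q1, OR9I1, OR9Q2, OR1S2, OR1S1, OR10Q1, OR10W1, OR5B17, OR5B3, OR5B2, OR5B12 and OR5B21, were in H3K27me3 in both clones. Clone 6 held them in 1 domain, chr11:57864001-58524000 (660 kb). In Clone 3 the same interval was broken into 3 domains of 130, 38.0 and 470 kb, of which the second held OR9Q1 and OR6Q1 and the third the other 11 members. All 3 carry the same value, 113, in the second of the 2 deposited scores. Both clones put the last edge at the same kb, 15.9 kb past the OR5B21 start site.

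The last 7 members of cluster 5, after a gap of 918 kb without members, were in none of the 5 sets. These were OR5A2, OR5A1, OR4D6, OR4D10, OR4D11, OR4D9 and OR10V1. OR5A2, the first of them, lay 23.4 kb from the nearest H3K27me3 domain of Clone 3 and 26.4 kb from that of Clone 6. OR10V1, the last, lay 308 and 314 kb away. Alternate copies were few here, 0.750 to 8.00% of windows, and these 7 were among the 11 members with neither a Clone 3 domain nor alternate copies in most windows. The stretch from OR5A2 to OR10V1 was the richest in CpG of the 10 stretches measured, with 11.6 CpG per kb and 41.2% GC, and it includes the start sites of OSBP, PATL1 and STX3. Within 10 kb of the 7 receptors themselves the median was 8.20 CpG per kb, with a highest value of 9.90. The median over the 13 members of this cluster in H3K27me3 was 5.65 per kb, and their highest value was 9.20. Over all members in H3K27me3 the median was 6.15 per kb, with a highest value of 9.20. The median over the members in H3K9me3 was 5.78 per kb, and their highest value was 9.95. The gap before OR5A2 holds genes of other kinds. In no Clone 3 domain were 12 of the 15 non-receptor genes in the cluster, among them LPXN, CNTF, OSBP and STX3, where 90.2% of all genes were in none. GLYATL2, GLYATL1 and GLYATL1B, in the gap, were in Clone 3 H3K27me3, and of these only GLYATL1B was also in that of Clone 6. OR5AN1, a two-letter receptor in that gap, was in H3K27me3 in both clones.

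Cluster 4 was the largest, with 46 members over 2217 kb, and the only mark on its members was H3K9me3. Its first domain, chr11:54553001-56189000 (1636 kb), held 27 members: OR4C46, OR4A8, OR4A5, OR4A16, OR4A15, OR4C15, OR4C16, OR4C11, OR4P4, OR4S2, OR4C6, OR5D3P, OR5D13, OR5D14, OR5L1, OR5D18, OR5L2, OR5D16, OR5W2, OR5I1, OR5F1, OR8I2, OR8H2, OR8H3, OR8J3, OR8K5 and OR5J2. It was 72nd in length among 567 H3K9me3 domains and had the same edges in the clone-shared set. The second domain, chr11:56384001-56694000 (310 kb), held 7 members: OR8U3, OR5M9, OR5M3, OR5M8, OR5M11, OR5M10 and OR5M1. Of 57 noncoding receptor loci in the cluster, 48 were in H3K9me3 and 9 in no domain. The 3 protein-coding genes of the cluster that are not receptors, TRIM48, TRIM51 and an unnamed gene that starts at the OR5M3 start site, were also in H3K9me3, as were 5 receptors with a double subfamily letter, OR10AG1, OR5AS1, OR5AL1, OR5AP2 and OR5AR1.

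The other 12 members of cluster 4 were in no domain, and all had an alternate copy in most of their windows. Between the H3K9me3 domains lay OR8J2, OR5T2, OR5T3, OR5T1, OR8H1, OR8K3, OR8K1, OR8J1 and OR8U1, with 81.2 to 100% of windows copied. After the second domain lay OR9G1, OR9G4 and OR5G3, with 69.2 to 100%. A stretch in which most windows have an alternate copy runs over chr11:56189001-56383000. The first H3K9me3 domain ends at the kb where this stretch begins, and the second begins 1.00 kb after it ends. The next such stretch, chr11:56693001-56874000, begins 1.00 kb before the second domain ends, and an H3K27me3 domain of Clone 3 begins 7 kb after it. In the interval between the H3K9me3 domains 98.5% of windows were copied, against 4.10% in the domain before it and 3.56% in the domain after it. GC content was 35.3% in that interval, and 36.7% and 36.6% in the flanking domains.

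Cluster 3 was a small group inside a large H3K9me3 domain. OR4C13, OR4C12 and OR4C45 lay in chr11:49260001-50814000 (1554 kb), whose edges were 692 kb before the first and 781 kb past the last start site. The domain holds no other protein-coding gene. H3K27me3 domains were 1665 to 1746 kb away in Clone 3.

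Cluster 2 held both marks side by side within 272 kb. OR4B1 and OR4X2 were in a Clone 3 H3K27me3 domain of 48.0 kb and OR4X1 in the next one, of 26.0 kb. OR4S1, OR4C3 and OR4C5 followed without a Clone 3 domain, and OR4A47 was in an H3K9me3 domain of 87.0 kb. With only domains of at least 100 kb, OR4B1, OR4X2, OR4X1 and OR4A47 were in no Clone 3 domain. OR4B1, OR4X2 and OR4X1 also lost theirs with the upper 50% of domains by the lower score. OR4C5 lay 5.54 kb from the nearest H3K9me3 domain and OR4C3 37.9 kb from the nearest H3K27me3 domain of Clone 3 and 6.92 kb from that of Clone 6. In this cluster at most 6.00% of the windows of the 3 members without a domain had an alternate copy, and 12.2 to 12.5% had a second copy on the main chromosomes. The H3K9me3 domain of OR4A47 and its 2 neighbours, of 16 and 213 kb, carry the same value, 60.5, in the first deposited score.

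Cluster 1 began in H3K27me3 and ended in no domain. OR6A2, OR10A5, OR10A2, OR10A4 and OR2D2 lay in chr11:6706001-6906000 in Clone 3 (200 kb), and in Clone 6 in a domain of 222 kb. OR2D3 came next, and after a gap of 876 kb OR5P2, OR5P3, OR10A6 and OR10A3, which were in no set. The last 4 lie in a stretch with alternate copies, chr11:7779001-7973000, and in the interval from OR5P2 to OR10A3 97.1% of windows were copied. The last Clone 3 H3K27me3 domain before that stretch ended 13.0 kb before it. In Clone 6 the last H3K27me3 domain ended 43.0 kb before the stretch, and the next began 35.0 kb after it. Of the 9 non-receptor genes inside the cluster, 6 were in H3K27me3, among them SYT9, which encodes a synaptotagmin.

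The clones gave the same H3K27me3 call for 108 of 110 members. Both were positive at 45 members and both negative at 63, and Clone 3 alone was positive at 0. Clone 6 alone was positive at 2 members, OR2D3 and OR4S1. Over all genes, 3.77% were in H3K27me3 in 1 of the 2 clones, 224 in Clone 3 alone and 531 in Clone 6 alone. Each of the 2 members lay near the end of a Clone 6 domain that overlapped Clone 3 domains ending before the start site. The OR2D3 start site, chr11:6921002, was 15 kb past the end of the Clone 3 domain and 3.00 kb inside that of Clone 6, chr11:6702001-6924000. The OR4S1 start site, chr11:48306223, was 19.2 kb past the end of the nearest Clone 3 domain, of 26.0 kb. It was 11.8 kb inside the Clone 6 domain, chr11:48188001-48318000, which spans that domain and the Clone 3 domain of 48.0 kb before it. When only domains of at least 100 kb were kept, Clone 6 alone was positive at 7 members, adding OR4B1, OR4X2, OR4X1, OR9Q1 and OR6Q1, whose Clone 3 domains are shorter. The 3.77% is for domains of all lengths, and the share of all genes under this filter is not given here. H3K9me3 in Clone 6 was not analysed here on its own, and the clone-shared H3K9me3 set held the same 38 members as the Clone 3 set.

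**Figure D4:**
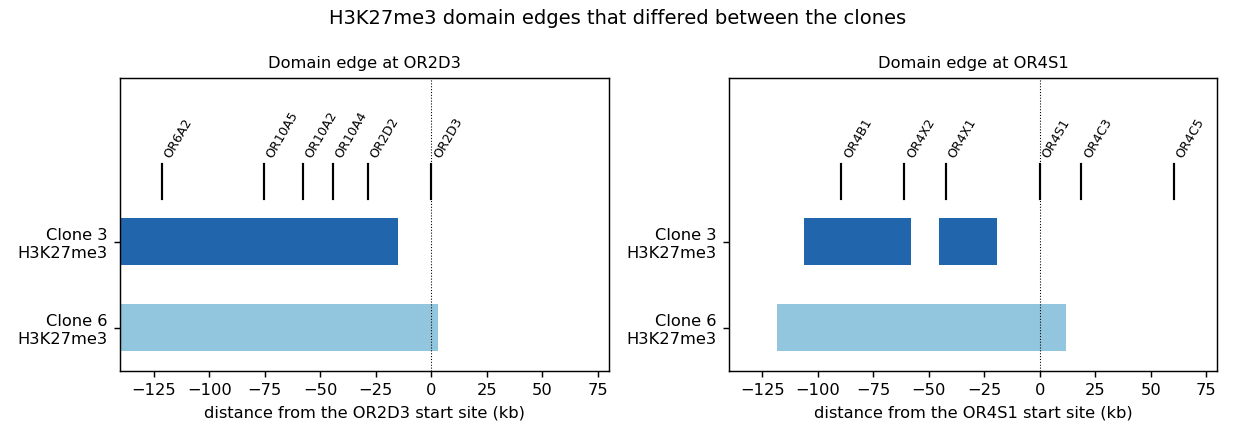
H3K27me3 domains of Clone 3 and Clone 6 around the start sites of OR2D3 and OR4S1, with distance in kb and ticks for the receptors. In both panels the Clone 6 bar passes the dotted line at the start site and the Clone 3 bar ends before it.

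Shown are the 250 bases before the start in RefSeq (GRCh38.p14), with CpGs in capitals. They belong to the 2 neighbours at the OR2D3 edge, to a coding pair with different calls and to the most alike coding pair. CpG was sparse on either side of the OR2D3 edge, and the most alike pair lies within a single domain. OR2D2 is at chr11:6892501-6892750, minus strand, in H3K27me3 in both clones. OR2D3 is at chr11:6920752-6921001, plus strand, in H3K27me3 in Clone 6 only. OR8J3 is at chr11:56140202-56140451, minus strand, in H3K9me3. OR8J1 is at chr11:56354041-56354290, plus strand, in no domain. An alternate copy exists for 98.5% of the windows around OR8J1, so a lack of the mark and a lack of placed reads cannot be told apart there. OR8B2 is at chr11:124384500-124384749, minus strand, and OR8B3 at chr11:124399025-124399274, minus strand, both in H3K27me3 in both clones.
OR2D2: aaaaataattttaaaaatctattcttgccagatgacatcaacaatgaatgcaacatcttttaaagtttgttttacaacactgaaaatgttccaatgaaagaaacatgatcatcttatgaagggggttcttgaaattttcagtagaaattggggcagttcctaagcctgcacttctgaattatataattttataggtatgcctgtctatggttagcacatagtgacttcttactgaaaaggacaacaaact
OR2D3: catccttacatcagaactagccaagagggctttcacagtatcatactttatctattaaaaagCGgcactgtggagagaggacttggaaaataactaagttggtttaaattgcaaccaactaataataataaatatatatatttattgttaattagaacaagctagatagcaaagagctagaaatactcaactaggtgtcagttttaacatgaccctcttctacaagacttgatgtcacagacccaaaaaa
OR8J3: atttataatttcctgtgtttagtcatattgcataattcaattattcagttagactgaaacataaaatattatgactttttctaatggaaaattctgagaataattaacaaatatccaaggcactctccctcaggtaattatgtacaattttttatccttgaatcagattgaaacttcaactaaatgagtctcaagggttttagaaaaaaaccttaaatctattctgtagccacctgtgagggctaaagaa
OR8J1: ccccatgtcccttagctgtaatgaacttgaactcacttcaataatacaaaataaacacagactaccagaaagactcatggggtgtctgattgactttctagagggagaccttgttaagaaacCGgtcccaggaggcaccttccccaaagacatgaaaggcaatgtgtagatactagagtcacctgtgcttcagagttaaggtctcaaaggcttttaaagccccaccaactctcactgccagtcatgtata
OR8B2: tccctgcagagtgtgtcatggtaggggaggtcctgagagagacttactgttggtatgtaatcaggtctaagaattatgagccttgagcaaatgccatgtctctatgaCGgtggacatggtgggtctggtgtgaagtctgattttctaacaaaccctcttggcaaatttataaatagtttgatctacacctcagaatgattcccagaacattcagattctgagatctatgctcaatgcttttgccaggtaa
OR8B3: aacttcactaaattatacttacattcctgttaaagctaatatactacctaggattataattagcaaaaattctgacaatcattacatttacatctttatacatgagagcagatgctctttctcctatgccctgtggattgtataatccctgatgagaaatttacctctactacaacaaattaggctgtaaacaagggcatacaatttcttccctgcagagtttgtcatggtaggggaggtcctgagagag

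These 6 sequences hold 0 or 1 CpG each. The end of the OR8B3 window resembles the beginning of the OR8B2 window, with 28 bases exactly shared, so the annotated starts of this pair are offset against each other and likeness of the windows was not measured. A RefSeq promoter, 250 bases before to 50 after the start, was matched by symbol for 87 members and not for 23. Some annotated genes hold little beyond their coding sequence, such as OR2D2, chr11:6891574-6892500 with 924 coding bases. For these the start is that of the coding sequence, and the bases before it need not be a promoter. They were not separated here from longer genes such as OR8J3, chr11:56134721-56140201 with 945 coding bases. The median was 1 CpG per 300 bases (0 to 5), and 26 of the 87 promoters had none, whereas the median over all 35116 promoters was 14.0. Median GC content was 37.0% in the members' promoters and 58.7% in all promoters. The letters TAATTA, the core read by many homeodomain factors, were in 26.4% of the members' promoters and in 4.84% of all. TATAAA was in 34.5% and 11.5%. CCCNNGGG, the core of the motif of EBF factors, was in 5.75% and 19.1%. All 3 were searched on both strands with no regard to overlap. GC content differed between the same promoters, and its part in these shares was not tested. The TAATTA letters were in 25.8% of promoters in H3K9me3, 26.5% in H3K27me3 and 27.3% in no Clone 3 domain. TATAAA was in 35.5%, 32.4% and 36.4%, and CCCNNGGG in 3 of 31, 2 of 34 and 0 of 22.

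The surroundings of the members were poor in GC and CpG whatever their mark. Within 10 kb of the start sites, median GC content was 37.1% (32.6 to 42.3%) over the members and 45.2% over all genes. It was 35.9% for members in H3K9me3, 37.8% for those in H3K27me3 and 37.5% for those in no Clone 3 domain, with ranges that overlapped. CpG density had a median of 5.82 per kb over the members and 16.8 over all genes, and by state it was 5.78, 6.15 and 5.50 per kb. Low-density CpGs, with no other CpG within 20 bp, were 69.7% of the CpGs at the median member and 37.1% at the median gene. Neighbouring members share sequence and domains, so these medians are descriptions.

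**Figure D5:**
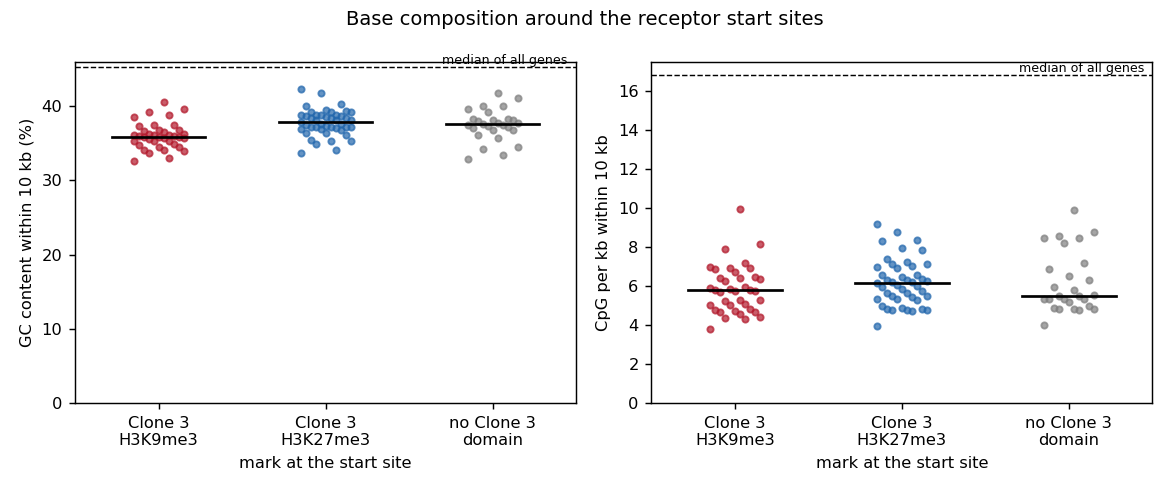
GC content in percent and CpG per kb within 10 kb of the start sites, by Clone 3 domain at the start site. Points are members, solid lines are medians and the dashed line is the median of all protein-coding genes. Both axes start at 0, and all members lie below the dashed line in both panels.

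By family the counts followed a few shared domains, so they are descriptions beside the 3.35% of all genes in H3K9me3 and 6.44% in H3K27me3. OR4 had 26 members, 15 in H3K9me3, 4 in H3K27me3 and 7 in no Clone 3 domain, and OR5 had 30, at 17, 5 and 8. OR8 had 25 members, 6 in H3K9me3, 13 in H3K27me3 and 6 in neither. All 6 OR8 members in neither had an alternate copy in most of their windows, as did some of the OR5 members in neither. For such members a lack of the mark and a lack of placed reads cannot be told apart. No member of OR10, OR6, OR9, OR1 or OR2 was in H3K9me3, although OR10AG1, a double-letter receptor and no member, was. OR10 had 12 of 15 members in H3K27me3 and OR6 all 5. OR8 genes were in H3K9me3 or in no domain in cluster 4 and in H3K27me3 in cluster 6.

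Coding sequences were compared over all 5995 pairs of members. The closest other member had a median identity of 74.7% (63.0 to 98.7%). It lay in the same cluster for 99 of the 110 members and had the same Clone 3 state for 92. Of 16 pairs with at least 90% identity, 13 shared a state, among them OR8B2 and OR8B3 (98.7%), OR5M10 and OR5M1 (97.1%), OR10G4 and OR10G9 (96.4%) and OR1S2 and OR1S1 (95.5%). The 3 pairs with different states were OR8H3 and OR8H1 (92.3%), OR8J3 and OR8J1 (92.3%) and OR8H2 and OR8H1 (91.5%). In each of these the first gene was in the H3K9me3 domain and the second in the neighbouring stretch with alternate copies. The share of alike states over all 5995 pairs is not given here. Neighbours in a cluster shared a state in 97 of 104 pairs, and likeness of sequence was not separated from position.

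Other receptors were counted in the same way. Of the 57 class I receptors on chromosome 11, 0 were in Clone 3 H3K9me3, 47 (82.5%) in Clone 3 H3K27me3 and 46 (80.7%) in Clone 6 H3K27me3. Of the 228 class II receptors on other chromosomes, 32 (14.0%) were in Clone 3 H3K9me3, 81 (35.5%) in Clone 3 H3K27me3 and 64 (28.1%) in Clone 6 H3K27me3. Of these 228, 33 had alternate copies in most windows, none of them in a set. Among the 195 without, the shares were 16.4%, 41.5% and 32.8%. The 1139 other protein-coding genes of chromosome 11 were at 1.32%, 7.02% and 9.75%. These shares were not tested, because neighbouring receptors share domains. Of the 11 receptors of chromosome 11 with a double subfamily letter, 5 were in Clone 3 H3K9me3, 5 in Clone 3 H3K27me3 and 1, OR2AT4, in neither. OR5AK2 and OR5AK3P were in H3K27me3 in Clone 3 and not in Clone 6.

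Of 20 genes of olfactory signalling and receptor choice, 1 (5.00%) was in Clone 3 H3K9me3, 6 (30%) in Clone 3 H3K27me3 and 7 (35.0%) in Clone 6 H3K27me3, where all genes were at 3.35%, 6.44% and 7.97%. These shares were not tested. The gene in H3K9me3 was NCAM2, an adhesion molecule of olfactory axons. Those in H3K27me3 in both clones were GNAL, the olfactory G protein alpha subunit, CNGA2, a subunit of the cyclic nucleotide-gated channel, ANO2, the calcium-activated chloride channel, and the transcription factors EBF1 and EMX2. RTP2, which helps receptors to the cell surface, was called in Clone 3 only, and the transcription factor LHX2 and the stomatin-like STOML3 in Clone 6 only. The genes for adenylyl cyclase 3 (ADCY3), olfactory marker protein (OMP) and the chaperones RTP1 and REEP1 were in no domain, as were CNGA4, CNGB1, GNB1, GNG13, LDB1, RIC8B and SLC24A4.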

How the data were processed

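H3K9me3 and H3K27me3 ChIP-seq was done in uninduced HCT116 shUHRF1 Clone 3 and Clone 6. The authors trimmed read pairs of 50 bp (Trim Galore 0.5.0), aligned them to hg38 (Bowtie2 2.3.5), dropped duplicates (samblaster) and used Enriched Domain Detector to find domains. The 5 deposited sets used here were Clone 3 H3K9me3, Clone 3 H3K27me3 and Clone 6 H3K27me3, kept where replicates shared domains, and 1 per mark for domains shared by the clones. Each domain of the clone sets has 2 deposited scores, whose scale and source list are not given in the sources used here. A score was used only to keep the upper 50% of a set and to note equal values.

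Start sites came from GENCODE 44, and coordinates are counted from 1. Sequence was read from hg38 with 261 alternate sequences. Alternate copies were exact 50-base matches on either strand. Coding identity was taken from edlib 1.3.9.post1 alignments of the canonical coding sequences, in nucleotides. Tools were Python 3.11.15, numpy 2.4.6, numba 0.67.0 and matplotlib 3.10.9, and placement was checked on simulated data. The study states a minimum depth, but depth per library cannot be read from domains, and no test across samples was possible, so counts stand beside the same counts over all genes. Genes named were the first and last of each cluster and run, those that differed between the clones, and those of the longest domains; the other members are listed by run. The members and lists were chosen with earlier results of these data known. Of the fixed list of olfactory signalling genes, 1 gene is not reported here.

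Alternatives were another point of the gene, a distance of 10 kb, domains of at least 100 kb, the upper 50% of domains by the lower score, names with more subfamily letters and cluster gaps of 500 kb and 2 Mb. Leaving out the members with alternate copies was added after seeing the data.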

Additional observations from a re-analysis of the deposited data

How the results depend on the processing

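Of 70 counts under other settings, 66 stayed within 1.5 times the value reported. Some of these could not move, since the filter on alternate copies drops only members in no set and so leaves each count of members in a set unchanged. The number of members in no Clone 3 domain, 27 of 110, was 11 of 94 when the members with alternate copies in over 50% of windows were left out, a choice made after seeing the data that by construction counts fewer members. Members in H3K27me3 in Clone 6 only, 2 as reported, were 7 with domains of at least 100 kb and 5 with the upper 50% of domains by the lower score, while members alike between the clones were 103 and 105 of 110. Shares of all genes under these settings are not given here. Members in H3K27me3 in Clone 3 only, 0 as reported, were 2 of 121 with double-letter names, OR5AK2 and OR5AK3P. The number in no Clone 3 domain was 24 when a distance of 10 kb was allowed, which added OR4C5, OR8U1 and OR9G1 to H3K9me3, and 33 with domains of at least 100 kb. Members in both marks were 0 under each setting. Clusters, 6 as reported, were 9 with a gap of 500 kb and 4 with 2 Mb, which the limit of 1.5 times still counts as alike. No paired analysis was possible because the domains come as 1 set per group, and the sources used here do not say which list each of the 2 scores comes from. Depth per library cannot be read from the domains, so a missing domain does not show that the mark is absent.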
